A study of Homo sapiens with 21 samples.

Results

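K562 and OCI-AML3 are established human leukaemia cell lines that were sequenced side by side in the first of the 2 sequencing batches of the series. K562, labelled erythroleukemia, was derived from the blast crisis of a chronic myeloid leukaemia. OCI-AML3 came from an acute myeloid leukaemia and is labelled myeloid. Both groups are called parental, carry the genotype label WT and the treatment label N/A, and hold 3 libraries each, so 6 of the 21 libraries of the series were compared. The libraries were chosen by these labels alone, and 13883 of the 28008 genes in the count table passed a low-count filter and were tested. The other libraries are labelled as OCI-AML3 cells kept with vehicle or resistant to the peptide under study, and they do not enter the main comparison. The title of the series names membrane cholesterol and inflammatory signaling, and the genes of those systems are described below beside those of blood lineage. The sources used here do not say how the cells were grown or whether the 3 libraries of a line came from separate cultures. The p-values therefore reflect only how far these libraries vary, which may be technical. Each kind of leukaemia is represented by 1 line, so a difference between these lines cannot be told apart from one between kinds of leukaemia.

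Red cells and white cells of the myeloid branch share a progenitor and part ways under opposing transcription factors. GATA1, TAL1 and KLF1 switch on globins, heme enzymes and the proteins of the red cell membrane. PU.1 (encoded by SPI1), C/EBP alpha (CEBPA) and IRF8 switch on the receptors, granule proteases and oxidase of monocytes and granulocytes. K562 is widely used as an erythroid model and is known for the BCR-ABL1 fusion kinase, which signals through STAT5. OCI-AML3 is known for a mutated NPM1 gene and for high expression of HOXA genes.

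Total counts ran from 14.6 to 19.0 M reads (M, 1e6) in K562 and from 14.7 to 17.04 M in OCI-AML3. The 10 most abundant genes took 4.08 to 5.13% of a library. Over 10807 genes averaging at least 5 CPM (counts scaled to a library size of 1e6), Pearson correlations of log2 values were 0.997 to 0.998 within K562, 0.996 to 0.998 within OCI-AML3 and 0.522 to 0.531 between the lines. These correlations run across genes, which are no independent replicates, and are given as a description. The K562 libraries also had correlations of 0.979 to 0.981 with the libraries of the same batch labelled resistant OCI-AML3 (0.508 to 0.514 for OCI-AML3 parental against those), and the OCI-AML3 parental libraries had 0.983 to 0.986 with vehicle OCI-AML3. Globin genes summed to 3286 to 3431 CPM in the K562 libraries and to 0 to 0.237 CPM in the OCI-AML3 libraries; the markers of each labelled cell type are described below.

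The lines differed at most genes. Calls are adjusted p-values under 0.05 in edgeR's quasi-likelihood test, with Benjamini-Hochberg adjustment over all genes tested. Of the 13883 genes, 11820 (85.1%) were called, 5915 (42.6%) higher and 5905 (42.5%) lower in K562, and counts for gene lists below are read against those shares. Fold changes are K562 over OCI-AML3 on the log2 scale throughout. Their median over all genes tested was 0.00055 and the median size was 0.83. A change of at least 1 was called for 2943 genes in the higher and 3179 in the lower direction, and one of at least 5 for 869 and 1130. The 3 libraries of one line all lay above those of the other for 11883 genes (85.6%). At the other end, 879 genes (6.33%) had a 95% confidence interval within ±0.25, and abundant genes of translation were among them. EEF1A1, the elongation factor that carries tRNA to the ribosome, averaged 8607 CPM in K562 and 8944 CPM in OCI-AML3 (-0.06, adjusted p = 0.182), and was called lower only under upper-quartile scaling (-0.09) and against vehicle libraries (-0.14) among 15 alternative fits.

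**Figure D1:**
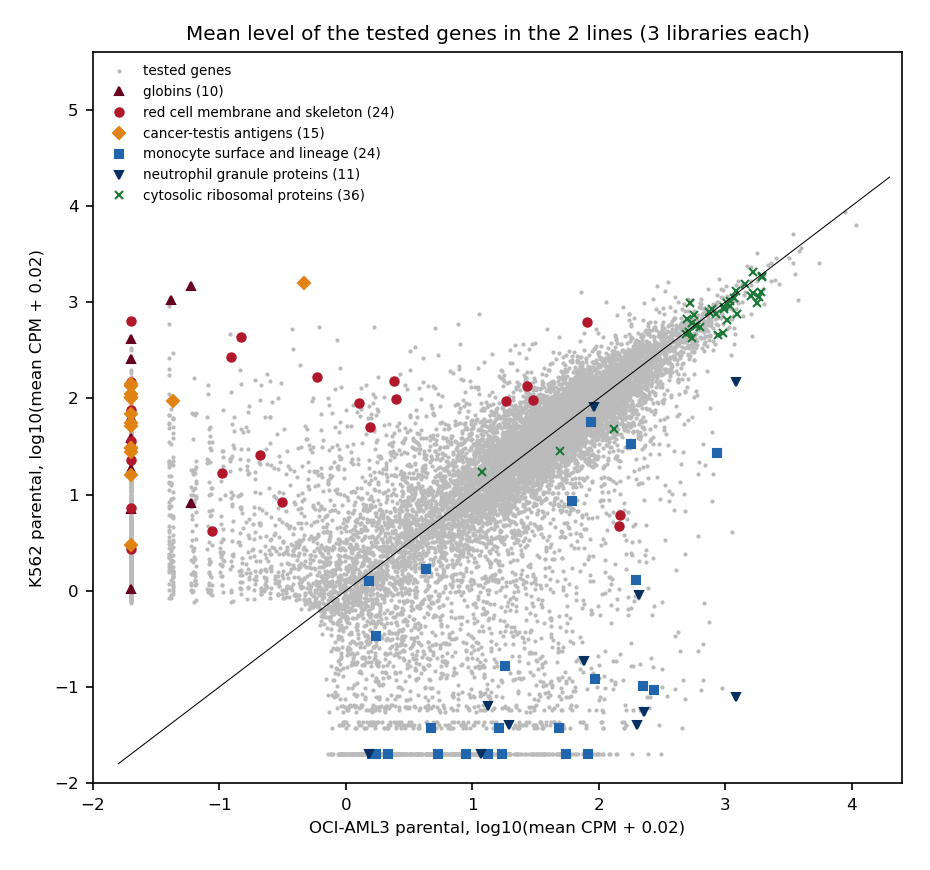
Mean level of each tested gene in OCI-AML3 (x axis) and K562 (y axis), both as log10 of mean CPM plus 0.02 over 3 libraries, with members of 6 gene lists marked and a line of equal level. Globins, cancer-testis antigens and 22 of 24 red cell membrane genes lie above the line, most monocyte and granule genes well below it, and ribosomal protein genes near it.

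Many genes were present in one line and nearly absent from the other. Presence was set at 10 CPM or more on average and absence at 3 counts or fewer over the 3 libraries. Genes of chromosome Y and XIST were left out of these counts and of the ranking below. In K562 alone 249 genes were seen, 167 of them with 0 counts in OCI-AML3. Another 304 were seen in OCI-AML3 alone, 143 of them with 0 counts in K562. Protein-coding genes made up 204 of the first group and 282 of the second, and long noncoding RNAs 25 and 10. These genes took 1.72 to 1.73% of the counts of a K562 library and 1.69 to 1.73% of those of an OCI-AML3 library. Genes were also ranked by the fitted fold change, which depends on a prior count of 0.125 where a line held 0 counts and is then no bound, so another treatment of 0 counts would order them otherwise. The 12 highest in K562 were RHAG, HBG1, GALNT5, HEMGN, HBE1, CTCFL, NCKAP1, HBZ, DSG2, LOC102724908, HBG2 and NMU. The 12 lowest in K562 were CES1, IRX3, PHACTR3, PTPRN2, CTSG, TNF, NAV3, MTAP, PPFIA2, LHX2, SASH3 and FAM135B. These include a granule protease, a cytokine, a methionine salvage enzyme and homeobox genes.

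The regulators of red cell genes were nearly all higher in K562. Of 17 genes on the list, 16 were tested, 13 were higher and 1 was lower (2 without K562 replicate 2 and 3 without OCI-AML3 replicate 3), with a median of 5.32. Among those tested, 5 had at most 3 counts in OCI-AML3 and passed the filter through K562 alone, so their direction was fixed. GATA1, the master regulator of the lineage (hg38 chromosome X, 48786540 to 48794311), was at 186, 172 and 186 CPM in the 3 K562 libraries and had 0 counts in OCI-AML3. Its level was therefore at least 2857-fold higher, taking 3 counts over the 3 OCI-AML3 libraries as the floor. Such bounds, and the counting intervals given where a group held 1 to 3 counts, cover counting error only. TAL1, the partner of GATA1 (chromosome 1, 47216290 to 47232225), was at 170, 161 and 167 CPM against 2.07, 2.13 and 1.15 CPM (6.52, SE 0.11, adjusted p = 2.40e-22). KLF1, which activates adult globin genes, was at 110, 108 and 113 CPM against 1 count in OCI-AML3, a ratio of 5209 with a 95% interval of 934 to 205765. No library of one line reached the range of the other for these 3 genes.

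GFI1B, a repressor needed for red cells and platelets, averaged 67.7 ± 1.40 CPM (SD, n = 3) in K562 and had 0 counts in OCI-AML3, at least 1066-fold higher. NFE2 averaged 201 ± 4.68 CPM against 7.85 ± 1.26 CPM (4.69, SE 0.08), and GATA2, a factor of early progenitors and mast cells, 198 ± 1.55 against 3.18 ± 0.0963 CPM (5.96, SE 0.08). HEMGN, which encodes the nuclear protein hemogen, reached 315 ± 19.3 CPM and was at least 4953-fold higher. Not all partners followed. LMO2, the bridging subunit of the GATA1 and TAL1 complex, was at 95.5, 99.9 and 101 CPM in K562 and higher, at 162, 148 and 150 CPM, in OCI-AML3 (-0.64, SE 0.05, adjusted p = 6.87e-10). EPOR, the erythropoietin receptor, was higher by 0.77 (SE 0.10). MYB, a factor of progenitors, was not called at 268 ± 9.74 against 287 ± 7.18 CPM (-0.10, adjusted p = 0.0626), though it was called lower in 7 alternative fits, vehicle in place of parental OCI-AML3 among them (-0.38). BCL11A, the repressor of fetal globin, had 0 counts in K562 and 7 in OCI-AML3 and was not tested.

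Globin genes were found in K562, most abundantly the forms of the embryo and fetus. All 10 tested had at most 3 counts in OCI-AML3 and passed the filter through K562 alone, so that all 10 were higher was fixed by the filter. Their median was 12.66, or 9.62 with members at 0 counts set at their bound. HBG2, a fetal gamma chain gene (chromosome 11, 5253188 to 5505605), was at 1432, 1494 and 1515 CPM in K562 and had 2 counts in OCI-AML3, a ratio of 35009 (95% counting interval 9691 to 289085). HBE1, the embryonic epsilon chain gene, was at 1062, 1043 and 1074 CPM against 1 count. HBG1, the other gamma gene, was at 418, 384 and 436 CPM against 0 counts, at least 6505-fold higher. The libraries of a line lay close together and the lines were far apart. Per kilobase of annotated exon, the K562 means were 1760 CPM per kb for HBG2, 1103 for HBE1, 281 for HBG1 and 221 for HBZ, the embryonic zeta chain. The adult alpha chain genes HBA2 and HBA1 were at 78.1 and 46.5 CPM per kb, the minor adult gene HBD at 16.0, and the adult beta gene HBB at 0.781. HBB had 0.952, 1.11 and 0.994 CPM in the K562 libraries and 0 counts in OCI-AML3. HBG1 and HBG2 are near-identical, as are HBA1 and HBA2, so the split within each pair is uncertain, and the annotated span of HBG2 overlaps HBE1 on the same strand.

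Genes of the red cell membrane and its skeleton were higher for 22 of 24 members and lower for 2, with a median of 6.59 (6.07 with 7 members at 0 counts in OCI-AML3 set at their bound). Of the 24, 8 had at most 3 counts in OCI-AML3 and passed the filter through K562 alone, which fixed their direction. RHAG, the Rh-associated glycoprotein (chromosome 6, 49605175 to 49636839), was at 615, 654 and 639 CPM in K562 and had 0 counts in OCI-AML3, at least 10018-fold higher (adjusted p = 4.24e-24). SLC4A1, the band 3 anion exchanger of late red cells, was low even in K562, at 4.49, 4.18 and 3.71 CPM, against 3 counts in OCI-AML3. The list was not uniform, since the carbonic anhydrase gene CA2 was lower in K562 (4.64 ± 0.920 against 143 CPM on average, -4.93, SE 0.09). Heme synthesis genes were higher for 11 of 18 and lower for 4, with a median of 0.78. ALAS2, the erythroid form of the first heme enzyme, was at 40.7, 38.4 and 37.9 CPM against 1 count. Its housekeeping counterpart ALAS1 was lower in K562, at 41.6 ± 0.876 against 90.7 ± 1.94 CPM (-1.13, SE 0.06). FECH, the last enzyme of the pathway, was higher by 1.76.

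Of 15 iron genes tested, 10 were higher and 3 lower, with a median of 0.16. TFRC, the transferrin receptor that brings iron into the cell, was at 1411, 1535 and 1464 CPM in K562 and 280, 316 and 266 CPM in OCI-AML3 (2.36, SE 0.06, adjusted p = 1.26e-17). FTH1, the heavy chain of the iron store ferritin, was at 1301 ± 18.6 against 335 ± 15.3 CPM (1.96, SE 0.05), and its light chain FTL differed by 0.20. Receptor and store were thus both higher, with no overlap of libraries.

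Markers of the neighbouring platelet and mast cell lineages were sparse. Only 7 of 18 platelet genes passed the filter, 4 higher and 2 lower. Of the 7, 2 passed through OCI-AML3 alone and 1 through K562 alone, which fixed their direction. ITGA2B, the platelet integrin chain, averaged 13.7 CPM in K562 and 1.39 CPM in OCI-AML3 (3.31, SE 0.17), while GP9, a platelet glycoprotein gene, had 0 counts in all 6 libraries. FLI1, an ETS factor of the megakaryocyte lineage, went the other way, with 0 counts in K562 and 99.9, 98.4 and 92.7 CPM in OCI-AML3, at least 1621-fold lower. Of 10 mast cell and basophil genes, 5 were tested, 4 higher and 1 lower. Of the 5, 3 had 0 counts in OCI-AML3 and passed the filter through K562 alone, which fixed their direction. KIT, the stem cell factor receptor, averaged 2.94 ± 0.595 CPM in K562 and had 0 counts in OCI-AML3, and the tryptase genes did not pass the filter.

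**Figure D2:**
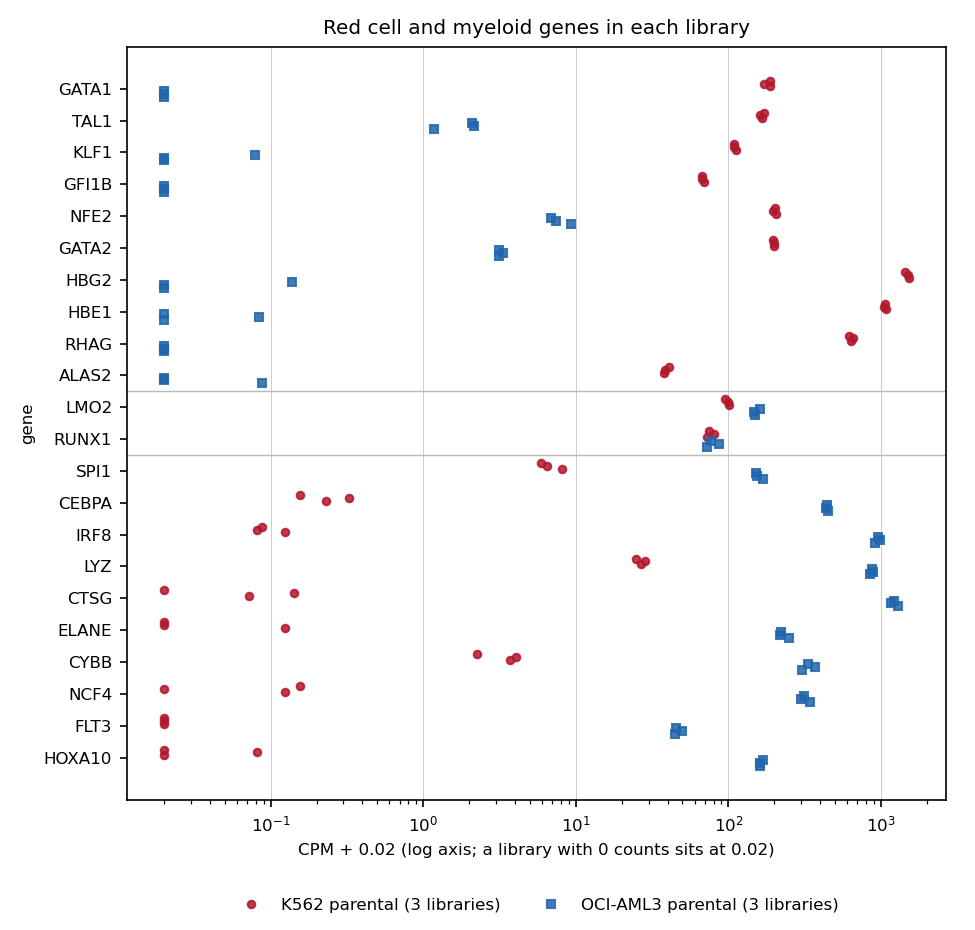
CPM plus 0.02 on a log axis for each of the 6 libraries (red circles K562, blue squares OCI-AML3) at red cell genes (top), LMO2 (lower in K562) and RUNX1 (not called) (middle) and myeloid and progenitor genes (bottom), where a library with 0 counts sits at 0.02. In the top and bottom panels no K562 library overlaps an OCI-AML3 library, with GATA1 at 172 to 186 CPM in K562 and IRF8 at 908 to 978 CPM in OCI-AML3.

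The myeloid regulators showed the mirror image, with 15 of 18 tested lower in K562, 1 higher (2 without K562 replicate 2) and a median of -4.45. Among the 18, 2 passed the filter through OCI-AML3 alone. SPI1, which encodes PU.1 (chromosome 11, 47354860 to 47378547), was at 5.91, 6.46 and 8.11 CPM in K562 and 152, 154 and 168 CPM in OCI-AML3 (-4.51, SE 0.09, adjusted p = 7.86e-21). CEBPA, the granulocyte factor (chromosome 19, 33299934 to 33302534), was at 0.136, 0.308 and 0.209 CPM against 441, 439 and 447 CPM (-10.93, SE 0.11). IRF8, the monocyte and dendritic cell factor (chromosome 16, 85899116 to 85922606), was at 0.0680, 0.0615 and 0.105 CPM against 956, 978 and 908 CPM (-13.40, SE 0.11, adjusted p = 4.86e-26). SPI1 thus kept counts in every K562 library, whereas CEBPA held 11 counts and IRF8 4 counts in K562 overall. CEBPB differed by -0.67 (SE 0.07). RUNX1, a factor needed for blood stem cells and much of both branches, was not called, at 75.1, 80.0 and 72.1 CPM against 77.0, 86.3 and 72.7 CPM (-0.06, adjusted p = 0.436). Its sign turned without OCI-AML3 replicate 2 (0.0090), and it was called lower with vehicle libraries in place of parental OCI-AML3 (-0.42).

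Surface and secreted proteins of monocytes were lower in K562 for 23 of 24 members tested and higher for 0, with a median of -7.95 (-7.07 with bounds), of which 12 had at most 3 counts in K562 and passed the filter through OCI-AML3 alone, and the 30 listed genes summed to 128 to 133 CPM in K562 libraries against 2207 to 2328 CPM in OCI-AML3. LYZ, the antibacterial enzyme lysozyme, was at 24.9, 28.6 and 26.9 CPM against 877, 888 and 844 CPM (-5.02, SE 0.06, adjusted p = 2.18e-24). CD33, a surface lectin used as a target in acute leukaemia, was present in both lines, at 9.11, 7.69 and 8.58 CPM against 62.7, 59.3 and 62.7 CPM (-2.86, SE 0.08). TYROBP, an adapter of activating receptors, averaged 0.144 ± 0.0528 CPM against 18.2 ± 0.567 CPM (-6.94, SE 0.22). OCI-AML3 held little of several textbook monocyte markers. CD14, a co-receptor for bacterial lipopolysaccharide, averaged 0.320 ± 0.0171 CPM in K562 and only 1.73 ± 0.274 CPM in OCI-AML3. CSF1R, the receptor for macrophage colony-stimulating factor, averaged 4.69 ± 0.477 CPM against 1 count in K562. ITGAM, the CD11b chain, was not called at 1.25 ± 0.448 against 1.49 ± 0.215 CPM (-0.24, adjusted p = 0.448), but was called with vehicle libraries in place of parental ones (-0.72).

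Granule proteins were lower for 11 of 11 tested, with a median of -8.85 (-8.12 with bounds), 7 of them passing the filter through OCI-AML3 alone, and the list summed to 231 to 238 CPM in K562 against 3208 to 3397 CPM in OCI-AML3. CTSG, which encodes the serine protease cathepsin G (chromosome 14, 24573518 to 24576250), had 3 counts in K562 and stood at 1208, 1166 and 1284 CPM in OCI-AML3, which is 20332 times as much (interval 6957 to 98596). ELANE, neutrophil elastase, averaged 230 ± 17.5 CPM against 2 counts. AZU1, azurocidin, averaged 207 ± 37.7 CPM against 0.889 ± 0.827 CPM, with K562 replicate 1 (1.84 CPM) above the other two. MPO, the peroxidase that defines the primary granule, was low in OCI-AML3 too, at 1.18, 1.48 and 1.83 CPM, with 0 counts in K562. Of the phagocyte oxidase genes tested, 6 of 7 were lower and 0 higher, and 2 of the 7 passed the filter through OCI-AML3 alone. CYBB, its catalytic subunit, was at 2.24, 4.06 and 3.66 CPM against 335, 369 and 304 CPM (-6.64, SE 0.13), and the regulatory subunit gene NCF4 averaged 0.0802 against 317 CPM (-11.82, SE 0.15).

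The bases just before the start of these genes were searched for short motifs of the lineage factors, because GATA1 and PU.1 differed so much between the lines. Sequences are RefSeq promoters of GRCh38.p14, cut to the 250 bases before the start, and were matched by symbol for 10198 genes of the table of tested genes, 164 of the 249 genes seen in K562 alone and 210 of the 304 seen in OCI-AML3 alone. The GATA motif was searched as AGATAA and the PU.1-type motif as GAGGAAG, each on both strands. AGATAA was in 9.38% of all 27195 promoters of the table, 4.60% of those of tested genes, 11.6% (19) of those of genes seen in K562 alone and 5.71% (12) of those seen in OCI-AML3 alone. GAGGAAG was in 11.1% of all promoters, 11.9% of those of tested genes, 18 of 164 seen in K562 alone and 42 of 210 seen in OCI-AML3 alone. In the lists, AGATAA was in 5 of 15 matched promoters of red cell membrane genes, and GAGGAAG in 10 of 22 of monocyte genes and 4 of 11 of granule genes. In promoters of erythroid transcription factors AGATAA was in 2 of 15 and GAGGAAG in 3 of 15. A C/EBP pattern, TTGCNNAA, was in 6 of 11 granule promoters (54.5%), 3 of 22 monocyte promoters (13.6%) and 3 of 15 promoters of erythroid transcription factors (20%). It was in 1 of 15 promoters of red cell membrane genes and 6.12% of those of tested genes. Among genes seen in 1 line alone, it was in 18 of 164 for K562 and 23 of 210 for OCI-AML3. The KLF pattern CCNCNCCC was in 69.5% of promoters of genes seen in K562 alone, 63.8% of those seen in OCI-AML3 alone and 70.9% of those of tested genes. CCAAT, bound by NF-Y, was in 34.8, 29.5 and 35.1%. A match describes letters in the window and does not show binding. Promoters of 5 genes described here are shown because they hold the motif of the factor that was high in the same line, with capitals marking each match, read on either strand, and all 5 written along the strand of the gene. The ALAS2 window is chrX:55030978-55031227 (minus strand), that of TAL1 chr1:47232336-47232585 (minus), of CTSG chr14:24576251-24576500 (minus), of CD33 chr19:51224830-51225079 (plus) and of TYROBP chr19:35908296-35908545 (minus).
ALAS2: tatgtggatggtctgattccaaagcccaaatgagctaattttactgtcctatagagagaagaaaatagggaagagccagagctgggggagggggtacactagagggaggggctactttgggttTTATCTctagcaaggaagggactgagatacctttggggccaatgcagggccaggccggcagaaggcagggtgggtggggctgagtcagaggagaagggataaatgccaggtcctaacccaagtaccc
TAL1: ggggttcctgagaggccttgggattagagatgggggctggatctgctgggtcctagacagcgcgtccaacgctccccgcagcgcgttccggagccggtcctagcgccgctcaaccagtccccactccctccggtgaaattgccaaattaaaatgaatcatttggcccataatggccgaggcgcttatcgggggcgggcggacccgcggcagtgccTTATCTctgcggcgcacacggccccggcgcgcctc
CTSG: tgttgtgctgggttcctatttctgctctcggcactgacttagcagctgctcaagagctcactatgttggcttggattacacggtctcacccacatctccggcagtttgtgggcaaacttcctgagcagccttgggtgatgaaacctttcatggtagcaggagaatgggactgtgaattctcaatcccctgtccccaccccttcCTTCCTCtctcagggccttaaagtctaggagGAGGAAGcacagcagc
CD33: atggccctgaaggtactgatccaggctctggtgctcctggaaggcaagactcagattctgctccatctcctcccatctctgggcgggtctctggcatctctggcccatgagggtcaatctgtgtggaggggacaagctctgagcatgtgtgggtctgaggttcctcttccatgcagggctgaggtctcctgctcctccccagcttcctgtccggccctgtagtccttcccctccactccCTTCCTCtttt
TYROBP: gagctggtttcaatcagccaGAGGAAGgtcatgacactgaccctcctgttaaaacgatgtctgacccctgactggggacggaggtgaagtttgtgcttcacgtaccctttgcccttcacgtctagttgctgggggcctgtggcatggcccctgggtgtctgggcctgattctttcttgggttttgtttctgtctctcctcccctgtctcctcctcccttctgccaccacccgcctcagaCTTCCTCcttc
In the first 2 the match nearest the start begins at base -127 and -35, and in the last 3 at base -16, -11 and -11.

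HOXA genes separated the lines sharply, while genes of other homeobox clusters went both ways. All 12 tested genes of the HOXA list, which holds cofactors too, were lower in K562, with a median of -8.96 (-6.17 with bounds), and 10 of them passed the filter through OCI-AML3 alone. HOXA10 (chromosome 7, 27170605 to 27180261) had 1 count in K562 and was at 168, 160 and 162 CPM in OCI-AML3. HOXA9, a driver of self-renewal in leukaemia with mutated NPM1, had 0 counts in K562 and 8.87, 8.90 and 11.2 CPM in OCI-AML3. The cofactor genes were less extreme, with MEIS1 at 9.04 ± 0.251 against 34.2 ± 2.25 CPM (-1.92, SE 0.09) and PBX3 at 0.984 ± 0.417 against 22.8 ± 1.48 CPM (-4.48, SE 0.17). The cluster formed the longest run of neighbouring genes lower by at least 3, 14 genes on chromosome 7 that held 6 counts in K562 and 21814 in OCI-AML3. The run includes the antisense genes HOXA10-AS and HOXA11-AS, whose counts cannot be told apart from those of their partners without the strand setting. The HOXB cluster did not follow, with 4 of 9 members higher and 4 lower. HOXC6, HOXC9, HOXC8 and HOXC4 formed a run of 4 genes higher in K562, with 574 counts against 15 in OCI-AML3. HOXB4, a stem cell factor, was higher in K562 at 71.0, 61.0 and 70.9 CPM against 13.3, 13.4 and 14.3 CPM (2.31, SE 0.08). Of other progenitor genes, FLT3, a receptor kinase mutated in acute leukaemia, had 0 counts in K562 and 45.6, 49.9 and 44.6 CPM in OCI-AML3. ERG, an ETS factor of stem cells, also had 0 counts in K562 and averaged 12.8 ± 1.76 CPM. MECOM, which encodes EVI1, was the reverse, at 48.1, 51.4 and 48.4 CPM in K562 and 0 counts in OCI-AML3. CD34 itself was untested, with 0 and 10 counts.

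Genes mutated or fused in myeloid leukaemia were split, 8 of 20 higher and 9 lower. BCR was at 167, 171 and 181 CPM in K562 against 40.3, 37.9 and 37.4 CPM in OCI-AML3 (2.17, SE 0.06, adjusted p = 1.58e-18), and ABL1 at 348, 344 and 358 CPM against 104, 106 and 101 CPM (1.76, SE 0.05). Counts per gene do not tell reads of the fusion from those of the intact genes. NPM1 was higher in K562 (2330 ± 95.7 against 1616 ± 50.7 CPM, 0.53) and NRAS too (1.25, SE 0.06), while DNMT3A, a DNA methyltransferase, was lower (-1.82, SE 0.08).

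The list of STAT5, its targets and its partner kinases was higher in K562 for 12 of 14 members, with a median of 2.71. STAT5A was at 547, 552 and 565 CPM in K562 and 1.89, 1.48 and 1.56 CPM in OCI-AML3 (8.39, SE 0.08, adjusted p = 1.95e-25), and its neighbour STAT5B at 259 ± 1.87 against 45.6 ± 2.51 CPM (2.51, SE 0.06). PIM1, a survival kinase, was at 369, 366 and 372 CPM against 8.40, 7.48 and 8.12 CPM (5.52, SE 0.07). The feedback inhibitor genes SOCS2 (6.12, SE 0.10) and CISH (2.99, SE 0.10) were higher as well, as was the cyclin gene CCND2, at 141 ± 7.34 CPM against 6 counts. The exception with the greatest fall was OSM, the oncostatin M cytokine, with 1 count in K562 against 3.34 CPM on average. Genes of MAP kinase feedback were not shifted as a list, with 7 of 15 higher and 6 lower, although DUSP6, a phosphatase of ERK, was lower at 0.180 ± 0.0585 against 9.09 ± 0.130 CPM (-5.60, SE 0.25).

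Some genes of cell cycle arrest and stress differed as well. CDKN1A, the p21 cell cycle inhibitor, was at 7.14, 6.40 and 7.69 CPM in K562 against 61.5, 62.4 and 64.6 CPM (-3.14, SE 0.08). PHLDA3, an inhibitor of AKT, had 1 count in K562 against 36.4 ± 2.46 CPM. MDM2, a ubiquitin ligase, differed less (-0.85, SE 0.05), and GDF15, a stress cytokine, was higher in K562 (19.0 ± 1.69 against 0.726 ± 0.448 CPM, 4.71). ZMAT3 was not called (0.03, adjusted p = 0.728), and its sign turned under upper-quartile scaling (-0.0095) and without OCI-AML3 replicate 3 (-0.03).

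On the short arm of chromosome 9, all 7 tested genes of the 9 listed for band 9p21 and its surroundings were lower in K562, with a median of -7.87 (-5.22 with bounds), and 5 of them passed the filter through OCI-AML3 alone. MTAP, the methionine salvage enzyme (21802636 to 21937651), had 0 counts in K562 and was at 125, 134 and 108 CPM in OCI-AML3, at least 2046-fold lower. HACD4 also had 0 counts, KLHL9 had 1, and the cell cycle inhibitors CDKN2A and CDKN2B had 0 against 1.48 and 1.80 CPM on average. MLLT3 and FOCAD, further out, kept 13 and 113 counts in K562. The 7 neighbours from MLLT3 to CDKN2B formed the third longest run of lower genes, with 127 counts in K562 and 14307 in OCI-AML3.

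Fold changes along chromosomes were uneven beyond these runs. The median over tested genes was highest on chromosome 6 (0.56, with 59.8% of its genes higher), X (0.46, 58.4%) and 21 (0.38), and lowest on chromosome 8 (-0.47, with 62.3% lower), 22 (-0.35), 17 (-0.33) and 14 (-0.33). Chromosome 22 changed level along its length, and the place was looked at after its values were seen. The 20 tested genes before BCR had a median of 2.12, with 16 higher and 4 lower. The 20 after it had a median of -0.47, with 4 higher and 12 lower. Over the whole chromosome the 73 genes before BCR had a median of 1.27 and the 261 after it -0.53. Around ABL1 on chromosome 9 no such step was seen, with medians of 0.09 before and -0.11 after over 20 genes each. The copy number of these segments was not measured, and its part in these values was not tested.

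**Figure D3:**
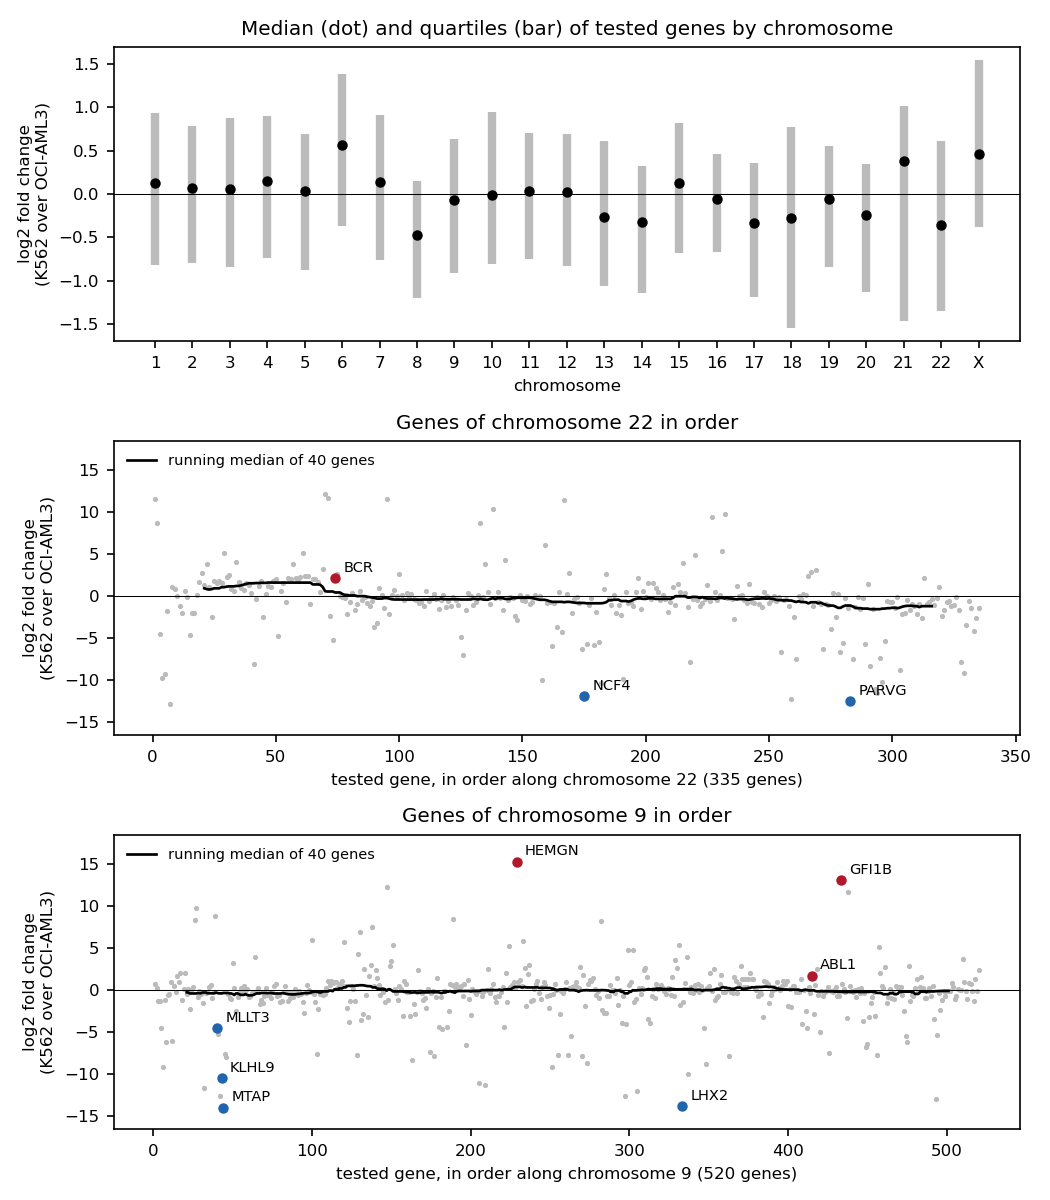
Top, median (dot) and quartiles (bar) of the log2 fold change, K562 over OCI-AML3, of tested genes on each chromosome. Middle and bottom, the log2 fold change of each tested gene in order along chromosomes 22 and 9, with a running median over 40 genes that drops at BCR on chromosome 22 and stays near 0 at ABL1 on chromosome 9.

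Enzymes that build cholesterol were higher in K562 for 18 of 20 members and lower for 2, with a median of 1.00, against 42.6% and 42.5% of all genes. Their summed level was 3286 to 3390 CPM in K562 and 1845 to 1880 CPM in OCI-AML3. HMGCS1, which makes the precursor of mevalonate (chromosome 5, 43287470 to 43313512), was at 366, 394 and 378 CPM in K562 and 139, 145 and 132 CPM in OCI-AML3 (1.45, SE 0.05, adjusted p = 1.65e-16). DHCR7, which carries out the last reduction (chromosome 11, 71428193 to 71452868), was at 189, 182 and 192 CPM against 29.6, 28.9 and 28.5 CPM (2.69, SE 0.06, adjusted p = 2.89e-20). All K562 libraries lay above all OCI-AML3 libraries at both genes. EBP, a sterol isomerase, was higher by 2.43 (SE 0.07). CYP51A1, a sterol demethylase, was higher by 0.80. PMVK, a kinase of the mevalonate pathway, was lower, at 15.1 ± 1.27 against 38.2 ± 1.68 CPM (-1.34, SE 0.08).

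The genes that sense, import and export cholesterol did not move as a group. Among 19 sensing and uptake genes, 9 were higher and 8 lower, with a median of 0.03. SREBF2, the transcription factor that drives the synthesis genes, was slightly lower in K562, at 182, 180 and 187 CPM against 214, 225 and 216 CPM (-0.25, SE 0.05, adjusted p = 6.90e-05). NPC1, which moves cholesterol out of lysosomes, was higher by 0.98 (SE 0.07). LIPA, the lysosomal lipase that frees cholesterol from its esters, was at 0.0680, 0.246 and 0.157 CPM in K562 against 74.1, 79.3 and 70.5 CPM (-8.80, SE 0.16). Of 9 export and storage genes tested, 3 were higher and 4 lower. ABCA1, the main exporter, had 1 count in K562 against 5.74, 6.19 and 5.08 CPM, which is 284 times as much (interval 50.6 to 11274). NR1H3, the sterol receptor LXR alpha, was lower (-2.17, SE 0.10). APOE, which accepts the exported cholesterol, was the reverse, at 64.9, 64.7 and 64.2 CPM against 5 counts (9.15, SE 0.19). SOAT1, which stores cholesterol as esters, was not called, at 71.5 ± 3.70 against 67.6 ± 6.49 CPM (0.08, adjusted p = 0.281).

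Other lipid genes of the membrane showed exchanges between related enzymes. The sphingomyelin synthases differed in opposite directions. SGMS1 was at 149, 162 and 159 CPM in K562 against 7.69, 9.09 and 8.46 CPM (4.22, SE 0.08), and SGMS2 had 1 count in K562 against 8.34, 9.22 and 7.72 CPM. Across 23 sphingolipid genes, 6 were higher and 16 lower, with a median of -0.81. Among 17 fatty acid genes, 9 were higher and 7 lower. ELOVL6, an elongase, averaged 112 ± 6.42 CPM in K562 against 3 counts, and the desaturase SCD 1125 ± 26.9 against 402 ± 24.9 CPM (1.48, SE 0.05), while SCD5 had 1 count in K562 against 12.4 ± 0.572 CPM. FASN, the fatty acid synthase, differed by 0.19, and by 0.05 with no call against vehicle libraries.

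Genes that hold or release phosphatidylserine across the membrane were lower for 8 of 11 and higher for 3. ATP8B4, a flippase subunit, averaged 0.735 ± 0.125 CPM in K562 and 316 ± 23.6 CPM in OCI-AML3 (-8.73, SE 0.11), and TMEM30A, the chaperone that flippases share, 109 ± 11.1 against 371 ± 32.4 CPM (-1.76, SE 0.08). ATP11B, another flippase gene, was higher by 1.83, and the scramblase gene PLSCR1 was at 51.8 against 18.3 CPM on average. ANO6, a calcium-activated scramblase, was lower by 1.13 on the log2 scale (-1.13, SE 0.08). XKR8, the caspase-activated scramblase, was low in both lines (2.99 ± 0.745 against 4.31 ± 0.768 CPM, -0.50, adjusted p = 0.0255), and its libraries overlapped. The XKR8 call was lost without K562 replicate 1 or 2 or OCI-AML3 replicate 2 or 3 (adjusted p 0.0642 to 0.103). It was also lost with vehicle libraries in place of parental OCI-AML3 (-0.35, adjusted p = 0.0724). Surface sugar genes were mixed, sialic acid genes with 8 of 16 higher and 7 lower and proteoglycan genes with 7 of 21 higher and 11 lower. ST6GAL1, which caps glycans with sialic acid, was at 146, 150 and 147 CPM in K562 against 4.38, 4.58 and 3.32 CPM (5.17, SE 0.09). CHST11, a chondroitin sulfotransferase, was lower (75.2 against 281 CPM on average). Of 20 membrane repair genes, 9 were higher and 10 lower. ANXA1, a calcium-dependent phospholipid binder, was at 326 ± 12.5 against 28.0 ± 0.729 CPM (3.54, SE 0.06), whereas ANXA2 (257 against 514 CPM on average), its partner S100A10 (-5.31, SE 0.15) and the ferlin gene MYOF (-10.11, SE 0.18) were lower in K562.

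Among inflammatory genes, many sensors and receptors were lower in K562, and cytokine genes went both ways. Of 21 Toll-like receptor and inflammasome genes tested, 15 were lower and 3 higher, with a median of -3.93. Of the 21, 8 had at most 3 counts in K562 and passed the filter through OCI-AML3 alone, which fixed their direction, and 1 passed through K562 alone. NLRP3, the sensor of the best known inflammasome (chromosome 1, 247416156 to 247449108), had 1 count in K562 and was at 157, 162 and 153 CPM in OCI-AML3, which is 7890 times as much (interval 1416 to 311660). Its adapter PYCARD was at 1.50, 1.72 and 1.52 CPM against 40.6, 41.0 and 45.6 CPM (-4.74, SE 0.12). CASP1, the protease it activates, had 0 counts in K562 and 51.0, 52.1 and 50.8 CPM in OCI-AML3, at least 855-fold lower. TLR2 and TLR4, receptors for bacterial lipids, had 0 counts in K562 against 96.9 ± 6.98 and 30.5 ± 4.41 CPM. MYD88, the adapter they share, was present in both, at 38.8 CPM on average against 62.6 CPM (-0.69, SE 0.06), and its sign turned with vehicle libraries in place of the OCI-AML3 parental ones (0.07).

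Among 17 cytokine genes tested, 10 were lower and 6 higher, with a median of -0.94. Of the 17, 5 passed the filter through OCI-AML3 alone and 1 through K562 alone. IL1B (chromosome 2, 112829751 to 112836816) had 0 counts in K562 and was at 51.5, 49.7 and 50.5 CPM in OCI-AML3, and TNF had 0 counts against 144, 126 and 141 CPM. CXCL8, which attracts neutrophils, was at 0.952, 0.800 and 0.837 CPM against 202, 194 and 189 CPM (-7.81, SE 0.10). IL6 was detected in K562 alone, at 0.762 ± 0.0465 CPM against 0 counts. Receptors were lower for 16 of 20 and higher for 4, with a median of -1.92, and 2 of the 20 passed the filter through OCI-AML3 alone. CCR1, a chemokine receptor, had 2 counts in K562 against 163, 173 and 159 CPM, CXCR4, which holds cells in the marrow, averaged 0.146 ± 0.196 against 181 ± 1.53 CPM (-10.26, SE 0.17), and the growth factor receptor genes CSF3R (-7.24, SE 0.17) and CSF2RB (-5.68, SE 0.16) were lower. TNFRSF1A, the main TNF receptor, was lower (-1.84, SE 0.06). TNFRSF1B was higher (0.59, SE 0.06), and its sign turned with vehicle libraries in place of parental ones (-0.13). CSF2RA had 0 counts in all 6 libraries, but whether the counting could assign its reads is not known, so its absence is not shown.

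Of 17 NF-kB subunit and regulator genes, 11 were lower and 2 higher (4 higher with vehicle libraries in place of parental ones), with a median of -0.94. RELA, its main activating subunit, was at 65.7, 66.0 and 65.6 CPM in K562 and 62.8, 65.3 and 67.7 CPM in OCI-AML3 and was not called (0.01, adjusted p = 0.849), with a sign that turned in 6 of the alternative fits and a call as higher with vehicle libraries (0.13). RELB, a subunit that NF-kB itself induces, was at 0.438 ± 0.166 against 10.3 ± 0.780 CPM (-4.52, SE 0.22), and NFKB1 was lower by 1.10 on the log2 scale (-1.10, SE 0.06). NFKBIA, the inhibitor that restrains the pathway, was lower (-1.28, SE 0.09), and TNFAIP3, another brake, was not called (-0.18, adjusted p = 0.0937), though it was called without OCI-AML3 replicate 3 (-0.25), under upper-quartile scaling (-0.21), with all 4 groups of the batch in the fit (-0.18) and, with vehicle libraries in place of parental ones, far lower (-2.39).

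Interferon-stimulated genes were lower for 25 of 30 and higher for 4, with a median of -2.05, and 6 of the 30 passed the filter through OCI-AML3 alone. MX1, an antiviral GTPase, had 0 counts in K562 against 7.86, 9.22 and 7.85 CPM. The IFITM genes, membrane proteins that block viral entry, went the other way, with IFITM1 at 336, 323 and 325 CPM against 0.296, 0.322 and 0.474 CPM (9.80, SE 0.11) and IFITM3 higher by 2.27 (SE 0.08). ISG15, a ubiquitin-like protein, was low and higher in K562 by 0.50 (adjusted p = 0.0085), and that call was lost without OCI-AML3 replicate 2 (adjusted p = 0.0612).

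Antigen presentation genes were lower for 18 of 19 and higher for 1, with a median of -2.89, and 3 of the 19 passed the filter through OCI-AML3 alone. HLA-B, a class I heavy chain, was at 0.0680, 0.308 and 0.576 CPM in K562 against 386, 388 and 428 CPM in OCI-AML3 (-10.17, SE 0.14). HLA genes resemble one another and vary between people, so the split of their reads is uncertain. B2M, the light chain of all class I molecules, was at 293, 322 and 306 CPM against 547, 541 and 565 CPM (-0.84, SE 0.05), so K562 held the light chain with few counts of that heavy chain. TAP1, the peptide transporter, was lower (-2.64, SE 0.09), as was the immunoproteasome gene PSMB9 (-5.06, SE 0.13). Class II was scarce in both lines, since HLA-DRA had 1 and 8 counts and its activator CIITA 0 and 14, although CD74, the class II chaperone, averaged 0.134 ± 0.181 against 71.0 ± 4.48 CPM (-9.12, SE 0.21).

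The apoptosis inhibitors BCL2 and BCL2L1 differed in opposite directions. BCL2 (chromosome 18, 63123346 to 63320128) was at 2.52, 1.72 and 1.62 CPM in K562 and 229, 257 and 220 CPM in OCI-AML3 (-6.93, SE 0.11, adjusted p = 1.56e-21). BCL2L1, which encodes BCL-xL, was at 192, 187 and 180 CPM against 23.2, 29.3 and 28.7 CPM (2.79, SE 0.07). MCL1 was present at similar order in both, 407 ± 7.62 against 529 ± 18.0 CPM (-0.38, SE 0.05). Per kilobase, BCL2 made up 0.347% of the sum of BCL2 and BCL2L1 in K562 and 74.3% in OCI-AML3. Of 14 members of the BCL2 family, 10 were lower and 2 higher, with a median of -0.57, and the killers BAX (-1.63), BAK1 (-0.50) and BCL2L11 (-2.46) were among the lower ones. Caspases and death receptors were balanced, 10 of 21 higher and 10 lower. CASP8, which starts death receptor signalling, was lower (-1.26, SE 0.07), as were the receptor FAS (-4.08, SE 0.14), RIPK3 (2 counts in K562 against 6.71 CPM on average) and MLKL (-2.63, SE 0.10), the last pair executing necroptosis. GPX4, which removes lipid peroxides, was lower by 0.59 on the log2 scale (-0.59, SE 0.05).

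Blood-cell versions of widely expressed cytoskeleton and signalling genes were lower in K562 for 31 of 32 members tested and higher for 1, with a median of -3.32, while their general counterparts were balanced (12 of 25 higher, 11 lower, median -0.06). Of the 32, 6 had at most 3 counts in K562 and passed the filter through OCI-AML3 alone. CORO1A, an actin-binding coronin of leukocytes, was at 1.77, 1.60 and 1.52 CPM in K562 and 399, 386 and 445 CPM in OCI-AML3 (-7.98, SE 0.10, adjusted p = 2.62e-24), whereas CORO1C was at 421 ± 13.5 against 138 ± 2.36 CPM (1.61, SE 0.05). The WAVE complex subunit NCKAP1 (chromosome 2, 182909115 to 183038858) was at 255, 272 and 262 CPM in K562 and had 0 counts in OCI-AML3, while its leukocyte form NCKAP1L was at 49.8, 51.0 and 51.3 against 220, 241 and 217 CPM (-2.15, SE 0.06). ITGB2, the beta chain of leukocyte integrins, was at 0.136, 0.308 and 0.209 CPM against 598, 611 and 630 CPM (-11.40, SE 0.11), with ITGB1 at 284, 316 and 299 against 264, 293 and 252 CPM (0.15, adjusted p = 0.0193). The libraries of ITGB1 overlapped, and its call was lost without K562 replicate 2 or 3 or OCI-AML3 replicate 1 or 3 (adjusted p 0.0739 to 0.144), under upper-quartile scaling (0.0532) and in the DESeq2 Wald test (0.0518).

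As a share of each pair per kilobase, the blood-cell member was 16.7% in K562 and 99.4% in OCI-AML3 for HCLS1 against CTTN (adapters of the actin cortex), 0.145 and 81.9% for ITGB2 against ITGB1, and 0.520 and 80.1% for CORO1A against CORO1C. For the phosphatases PTPN6 and PTPN11 the share of PTPN6 was 1.45 and 80.8%, and for WAS against WASL, which start actin branching, 17% and 89.6%. The pattern was not uniform, since LCP1, DOCK2 and FERMT3 took over 99% of their pairs in both lines, and VAV1 took 99.9% in K562 and 89.6% in OCI-AML3, where VAV3 averaged 21.8 CPM against 1 count in K562. FERMT3, which activates integrins, was the 1 member of the blood-cell list that was higher in K562 (0.53, SE 0.06), a call lost with vehicle libraries in place of parental ones (0.08). PTPRC, the pan-leukocyte marker CD45, was present in both lines and lower in K562 (152 against 421 CPM on average, -1.47, SE 0.06). Of 17 integrin genes, 11 were lower and 4 higher, with ITGA4 at 3.18 against 185 CPM (-5.87, SE 0.10), ITGA5 at 88.5 against 294 CPM (-1.73, SE 0.05) and ITGAL at 1 count against 79.0 CPM on average. Of the 17, 4 passed the filter through OCI-AML3 alone.

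**Figure D4:**
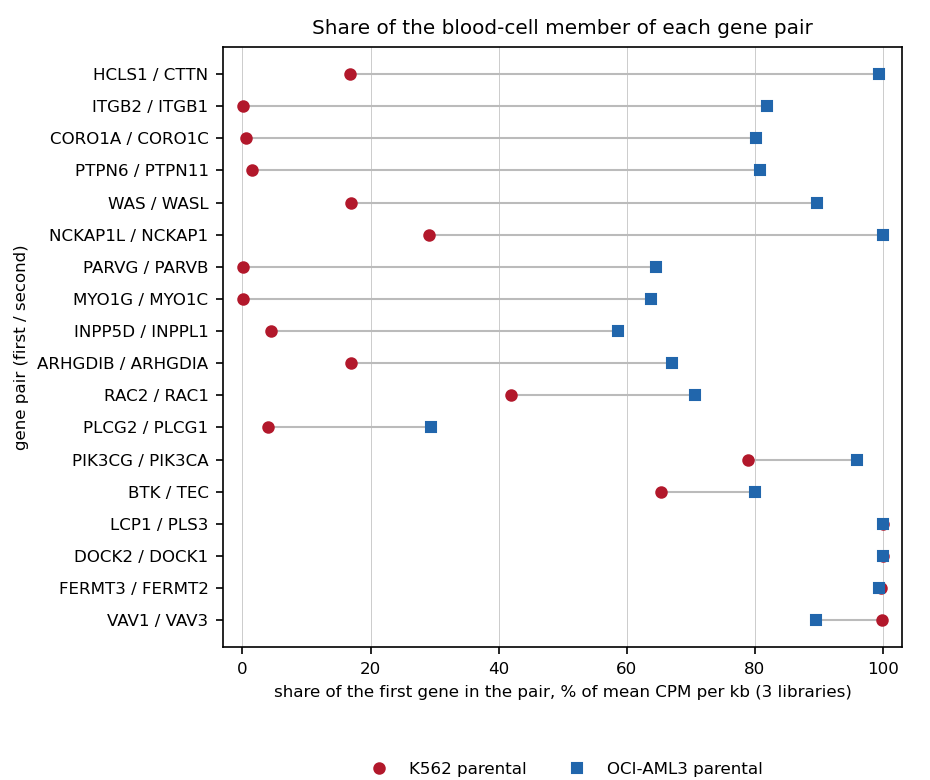
Share of the blood-cell member of 18 gene pairs, in percent of the pair's mean CPM per kilobase over 3 libraries, for K562 (red circles) and OCI-AML3 (blue squares). The share was higher in OCI-AML3 for pairs from HCLS1 and CTTN down to BTK and TEC, and about equal for the pairs at the bottom apart from VAV1 and VAV3.

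Antigens normally confined to germ cells were found in K562. Of 23 listed cancer-testis genes in the table, 21 had 0 counts in OCI-AML3. The 15 tested were higher, but 14 of them had at most 3 counts in OCI-AML3 and passed the filter through K562 alone, so that count was fixed by the filter. Their median was 12.70, or 10.08 with members at 0 counts set at their bound. The listed genes summed to 2527 to 2569 CPM in K562 against 0.355 to 0.645 CPM in OCI-AML3. PRAME (chromosome 22, 22547701 to 22559361) was at 1571, 1545 and 1594 CPM against 0.355, 0.645 and 0.338 CPM (11.76, SE 0.10, adjusted p = 3.64e-26) and made up most of that sum. MAGEA3 was at 141, 142 and 144 CPM against 0 counts, and its near-identical neighbour MAGEA6, with which reads can be confused, at 104 ± 6.86 CPM. CTCFL, a germ cell relative of the insulator CTCF, averaged 278 CPM against 0 counts. A run of 9 neighbours on chromosome X, from PASD1 to MAGEA6 (151563675 to 152769716), held 22840 counts in K562 and 0 in OCI-AML3. The longest run of higher genes was the beta globin region with 12 genes from TRIM68 to TRIM6 (chromosome 11, 4598672 to 5612958), with 161035 against 36 counts. The runs of 5 that came next were TM6SF1 to GOLGA2P7 on chromosome 15 and a zinc finger cluster, ZNF702P to ZNF818P, on chromosome 19. Among lower genes, the second longest run was 8 genes of leukocyte receptors from LENG9 to FCAR (chromosome 19, 54461732 to 54891420), with 25 against 6888 counts. In all, 14 runs of at least 4 genes were higher by 3 or more and 27 were lower, where 8.79% and 11.7% of positioned genes passed those sizes.

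Of 11 fetal and growth regulator genes tested, 6 were higher and 3 lower (5 with vehicle libraries in place of parental ones), with a median of 0.69. LIN28B, which blocks maturation of let-7 microRNAs, was at 250, 270 and 265 CPM against 1 count. IGF2BP1, a fetal mRNA-binding protein, was at 741, 751 and 756 CPM against 12.2, 10.5 and 11.2 CPM (6.05, SE 0.06), and IGF2BP3 was higher by 1.49 (SE 0.06), while their relative IGF2BP2, named after its values were seen, was lower (-0.93). Of 17 markers of cells outside the blood, 7 were tested, 6 higher and 1 lower, and 3 of the 7 passed the filter through K562 alone. EPCAM, an epithelial adhesion molecule, was at 91.1 CPM on average in K562 against 0 counts. Of lymphocyte markers, 4 of 18 were tested. CD3D, a T cell receptor chain, averaged 9.86 CPM in K562 against 0 counts, and NCAM1 (CD56), known from natural killer cells and some acute leukaemias, had 3 counts in K562 against 253 CPM on average. MS4A1, which encodes the B cell antigen CD20, had 0 counts in all 6 libraries.

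Basic machinery differed by small amounts with leanings in both directions. Proteasome genes were higher for 17 of 25 and lower for 5 (median 0.37), respiratory chain genes for 21 of 32 and 7 (0.49), S phase genes for 18 of 28 and 8 (0.21) and glutathione and peroxide genes for 19 of 28 and 8 (0.41). Mitotic genes were lower for 15 of 28 and higher for 9 (-0.24), ribosomal protein genes lower for 18 of 36 and higher for 8 (-0.11; 5 higher under upper-quartile scaling and without K562 replicate 3 or OCI-AML3 replicate 1 or 2), and housekeeping genes split 6 higher and 8 lower of 18. MKI67, the proliferation marker, was at 532, 505 and 527 CPM in K562 and 1007, 1093 and 983 CPM in OCI-AML3 (-0.98, SE 0.05). TOP2A, a topoisomerase of dividing cells, was not called, at 893 ± 30.5 against 948 ± 67.0 CPM (-0.09, adjusted p = 0.110), but was called lower without OCI-AML3 replicate 3 (-0.15) and under upper-quartile scaling (-0.12). ACTB, often used as a reference, was lower by 1.10 on the log2 scale (-1.10, SE 0.04), and GAPDH by 0.86 (-0.86, SE 0.04).

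A few members departed far from their lists. UBE2C, a ubiquitin carrier of mitosis (chromosome 20, 45812576 to 45816957), was at 1.09, 0.677 and 0.314 CPM in K562 and 124, 124 and 127 CPM in OCI-AML3 (-7.55, SE 0.13, adjusted p = 2.52e-21), and it was the only mitotic gene of the list lower by 1 or more. GPX1, a glutathione peroxidase (chromosome 3, 49357174 to 49358605), was at 0.0680, 0.123 and 0.209 CPM against 296, 302 and 348 CPM (-11.06, SE 0.15), whereas SOD2 was higher (1.83, SE 0.06). ABCB1, the multidrug exporter, averaged 23.6 CPM in K562 against 0 counts.

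**Figure D5:**
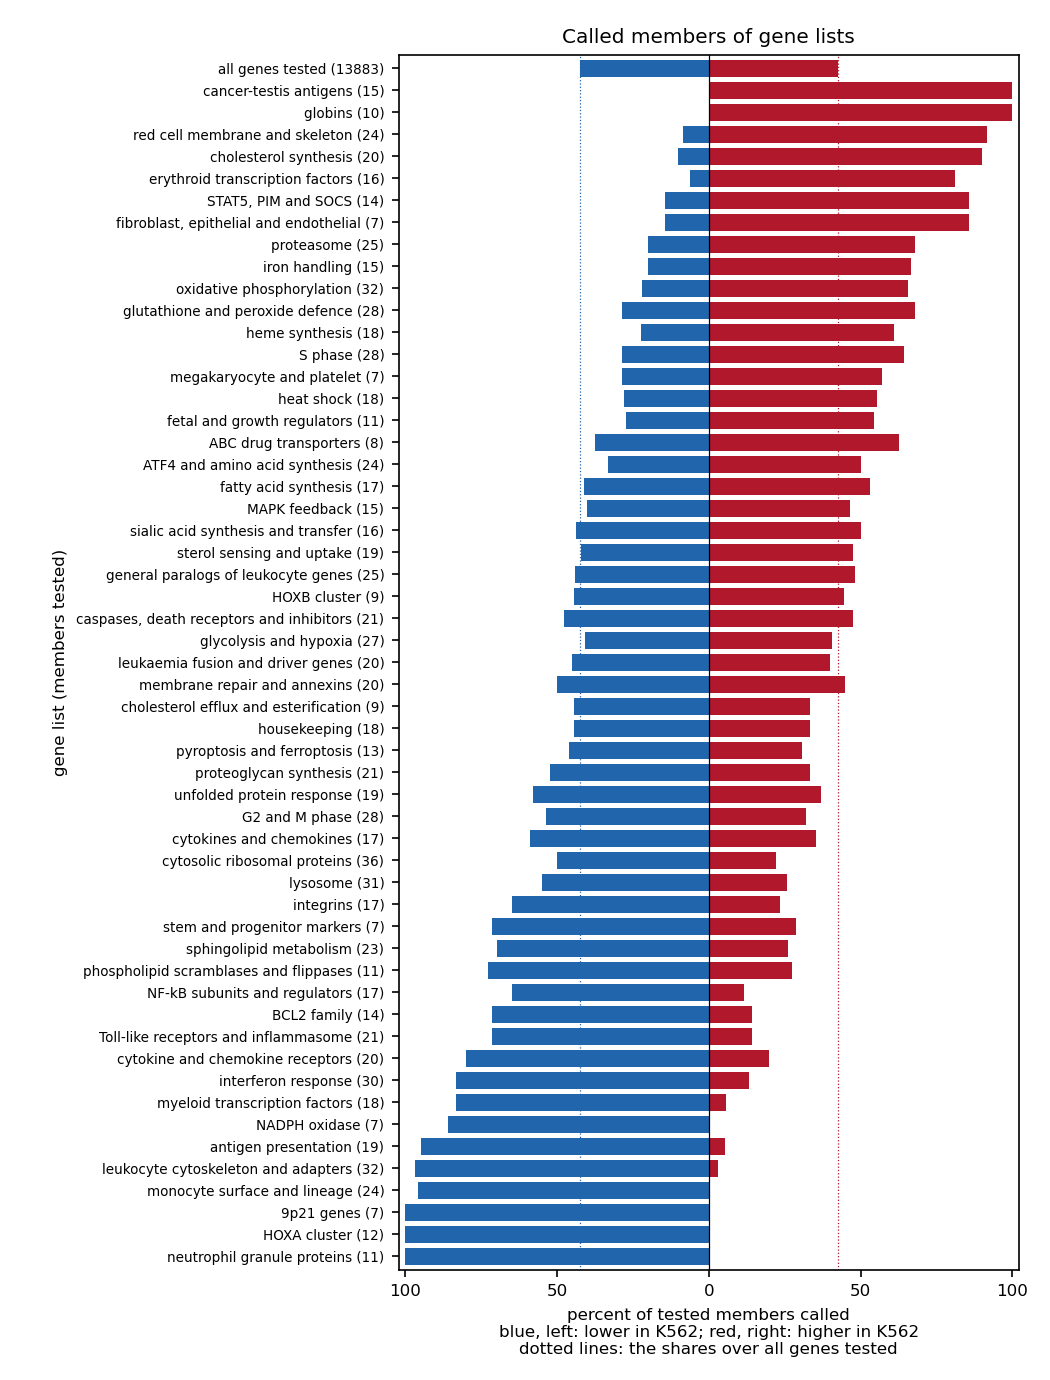
Percent of the tested members of the gene lists shown that were called higher (red, right) or lower (blue, left) in K562, with members tested in brackets, each list shown having at least 7 tested members, and dotted lines at the shares over all 13883 genes. Cholesterol synthesis (18 higher and 2 lower of 20) lies toward the top and sterol sensing (9 and 8 of 19) near the shares of all genes. The full bars of globins, cancer-testis antigens, granule, HOXA and 9p21 genes rest largely on members that passed the filter through 1 line. Bars of other lists, among them monocyte, Toll-like receptor and red cell membrane genes, also hold such members.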

How the data were processed

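RNA was sequenced as strand-specific mRNA libraries, per the labels' protocols and design text. The deposited values are raw counts of reads per gene, and the submitters' processing notes name the genome build hg38 and DESeq2 1.22.1. The sources used here give neither the aligner's version nor the annotation or strand setting of the counting. All 6 libraries carry batch 1 in their batch label, so no batch term was possible. The members and gene lists were chosen with earlier results of these data known. Counts were tested with edgeR 4.0.16 in R 4.3.3 (filterByExpr, TMM scaling, robust quasi-likelihood fit, Benjamini-Hochberg adjustment over 13883 genes), and the scripts were tested on simulated data. Standard errors are the absolute log2 fold change over the square root of F. CPM uses the scaled library size, and CPM per kilobase the exon length of GENCODE 44, matched by symbol for 25054 of 28008 genes, whose coordinates are given. Where a line held 0 counts, "at least" folds were computed against a floor of 3 counts over its 3 libraries. List medians and rankings use the fitted fold changes, and medians "with bounds" set such genes at that floor. Genes with 1 to 3 counts in a line got an exact 95% interval. Depth limits low genes most.

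Named genes were the 12 with the greatest called change in each direction at 10 CPM or more with no overlap, marked genes of each list, the list's extremes, members of the longest runs, paralog pairs and the most abundant alike genes. Others are said to be chosen after their values were seen or are named beside a count. Whether replicate numbers pair the libraries is not known. Correlations of same-numbered deviations were -0.07, 0.22 and 0.14, and those of different numbers ran from -0.31 to 0.21, which does not settle it. Some members of the lists are not reported here by name. Alternatives covered scaling, filters, DESeq2 1.42.0, the libraries in the fit and each library left out.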

Additional observations from a re-analysis of the deposited data

How the results depend on the processing

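The counts of called genes stayed within 1.5 times the main count in all 15 alternative fits, and the share of higher calls among them stayed between 48.6 and 50.6%. Calls numbered 11562 to 11931 with 1 library left out, 11441 with DESeq2's Wald test, 11365 with at least 1 CPM in 3 libraries, 13427 with no filter and 12242 with vehicle in place of parental OCI-AML3. With the replicate number as a block, 11904 genes were called, 5960 higher and 5944 lower; the numbers are not known to pair the libraries. With presence set at 1 CPM in place of 10, genes seen in 1 line alone numbered 660 for K562 and 769 for OCI-AML3. With vehicle libraries, signs turned for MYD88 (0.070) and TNFRSF1B (-0.13). RELA turned under DESeq2 size factors (-0.0020), upper-quartile scaling (-0.024), the 1 CPM filter (-0.0014) and DESeq2 (-0.0020), and ranged from -0.019 to 0.032 with 1 library left out, negative without K562 replicate 2 (-0.0014) or OCI-AML3 replicate 1. With 1 library left out, RUNX1 ranged from -0.11 to 0.0090 (without OCI-AML3 replicate 2) and ZMAT3 from -0.034 (without OCI-AML3 replicate 3) to 0.064, and ZMAT3 also turned under upper-quartile scaling (-0.0095). Counts of list members moved by over 1.5 times in 38 cases, each on a main count of 12 or fewer. Higher ribosomal protein genes numbered 5 in place of 8 in 4 fits, and lower erythroid factors 2 or 3 in place of 1 in 8 fits. Higher myeloid factors numbered 2 in place of 1 with the block. With vehicle libraries, lower proteasome genes numbered 3 in place of 5 and higher blood-cell cytoskeleton genes 0 in place of 1. Genes of ATF4 and amino acid synthesis then turned from 12 higher and 8 lower to 6 higher and 18 lower. The cause was not tested. Depth limits statements on genes with few counts, where a bound or interval replaces the fold change.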

Other observations

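Some genes outside the lists were chosen after their values were seen. Coat proteins of caveolae, the small pits of the cell surface, were found in K562. CAVIN1 averaged 299 CPM against 1 count in OCI-AML3, CAVIN2 138 CPM against 3 counts, and the caveolin gene CAV2 67.5 CPM against 1 count. ABO, the blood group transferase, averaged 26.9 CPM and PKLR, the red cell pyruvate kinase, 135 CPM in K562, both with 0 counts in OCI-AML3. Products of inflammatory myeloid cells were the reverse. S100A8 and S100A9, the calprotectin chains, had 2 counts and 1 count in K562 against 31.6 and 52.4 CPM on average. ALOX5AP, which presents arachidonate for leukotriene synthesis, had 0 counts in K562 against 37.2 CPM, and LTC4S, a later enzyme of that route, 1 count against 15.3 CPM.

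Genes known for their bearing on drugs also stood apart. MGMT, which repairs alkylated guanine, had 1 count in K562 against 16.3 CPM in OCI-AML3, which is 816 times as much (95% counting interval 146 to 32272). SLFN11, linked to sensitivity to DNA damage, had 3 counts against 55.2 CPM, and DPYD, which degrades fluorouracil, 3 counts against 57.9 CPM. CDA, which inactivates cytarabine, had 0 counts in K562 against 11.8 CPM, at least 196-fold lower. The histone gene HIST1H2BK was at 587 CPM in K562 against 7.72 CPM (6.24), and the actin gene ACTG1 at 1056 against 3750 CPM (-1.83).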
